A study of Homo sapiens with 9 samples.

Results

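The stretch of chromosome 16 from 2000000 to 2300000 (hg19) spans 300 kb that hold the genes NTHL1, TSC2, PKD1, TRAF7 and CASKIN1. It held few called γH2AX regions in wild-type (WT) K562 cells and many in cells knocked out (KO) for FANCL. K562 is an established human myelogenous leukaemia line. The 8 γH2AX ChIP-seq libraries formed 4 groups of 2: WT and KO cells, each either mock-treated or given 5 nM of the phorbol ester PMA for 72 h. All cells, controls included, were K562 cells grown in the same medium with serum, and the only input library came from WT mock cells. The labels do not say how many KO clones were used, nor that the 2 libraries of a group came from separate cultures, so p-values below measure only the spread between libraries, which may be technical. FANCL itself is not measured by region lists, so the genotype rests on the labels.

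The genes were chosen from these same libraries, because bins of this stretch had far more covered length in KO than in WT cells under both treatments. Their genotype values are therefore given as a description, with no test. All 5 genes had regions. Of 234983 regions over the 8 libraries, 268 lay in the stretch. A region is a run of 500 bp windows that the authors found to hold at least 2 times the tags of the input and more tags than a threshold of that library. Covered length is the number of base pairs inside regions. In such bulk libraries, more cells that carry γH2AX at a place and more γH2AX per cell cannot be told apart.

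H2AX is a histone variant that the kinases ATM, ATR and DNA-PK phosphorylate around DNA breaks and stalled replication forks, and the phosphorylated form, γH2AX, spreads along chromatin on both sides of the damage. FANCL is the ubiquitin ligase of the Fanconi anaemia pathway, which marks FANCD2 and FANCI so that crosslinks and troubled forks can be repaired. PMA activates protein kinase C and drives K562 cells towards a megakaryocyte-like state. Of the 5 genes, NTHL1 encodes a DNA glycosylase that removes oxidised pyrimidines in base excision repair. TSC2 encodes tuberin, the part of the tuberous sclerosis complex that switches off Rheb and so restrains mTORC1, and PKD1 encodes polycystin-1, a large membrane protein of the primary cilium whose loss causes polycystic kidney disease. TRAF7 encodes a ubiquitin ligase of the TRAF family that is often mutated in meningioma, and CASKIN1 encodes a scaffold that binds the synaptic protein CASK.

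The genes are packed tightly. NTHL1 (chr16:2089816-2097867, minus strand) and TSC2 (chr16:2097990-2138713, plus strand) start back to back, 122 bp apart. TSC2 and PKD1 (chr16:2138711-2185899, minus strand) run towards each other and overlap by 3 bp. TRAF7 (chr16:2205799-2228130, plus strand) and CASKIN1 (chr16:2227184-2246465, minus strand) also converge and overlap by 947 bp, so a region in that overlap counts for both. Exons, introns and untranslated parts were not used here. None of the 5 gene starts lay inside a region in any of the 8 libraries, which is why the promoter sequences are shown. They come from RefSeq on GRCh38.p14, from 250 bases before to 50 after a start, 5′ to 3′ along the gene, and 4 of the 5 genes matched. Capitals mark GC boxes, the letters GGGCGG or their reverse complement CCGCCC, with overlapping matches counted separately. The TSC2 window is chr16:2047735-2048034 (plus strand), that of PKD1 chr16:2135849-2136148 (minus strand) and that of TRAF7 chr16:2155532-2155831 (plus strand). The NTHL1 window shares 250 of its bases with that of TSC2 on the other strand.
TSC2 promoter: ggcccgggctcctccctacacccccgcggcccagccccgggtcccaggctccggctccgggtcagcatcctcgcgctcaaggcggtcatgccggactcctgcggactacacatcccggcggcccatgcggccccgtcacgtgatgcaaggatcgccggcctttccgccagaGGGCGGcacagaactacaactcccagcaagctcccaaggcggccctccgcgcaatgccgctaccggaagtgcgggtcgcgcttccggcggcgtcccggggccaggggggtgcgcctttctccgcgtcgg
PKD1 promoter: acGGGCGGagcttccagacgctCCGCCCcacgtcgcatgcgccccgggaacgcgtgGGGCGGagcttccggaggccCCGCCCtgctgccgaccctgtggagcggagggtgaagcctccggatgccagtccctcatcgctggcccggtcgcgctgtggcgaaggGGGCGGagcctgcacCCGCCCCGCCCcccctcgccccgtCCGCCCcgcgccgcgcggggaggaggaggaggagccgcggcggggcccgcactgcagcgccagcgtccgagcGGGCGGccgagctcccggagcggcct
TRAF7 promoter: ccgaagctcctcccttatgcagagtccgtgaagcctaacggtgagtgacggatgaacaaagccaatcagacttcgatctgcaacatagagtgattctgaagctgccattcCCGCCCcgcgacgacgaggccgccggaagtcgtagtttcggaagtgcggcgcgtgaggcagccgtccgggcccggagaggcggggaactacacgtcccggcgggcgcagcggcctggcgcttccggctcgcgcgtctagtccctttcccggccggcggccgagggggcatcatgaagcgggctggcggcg
The PKD1 window stands out by its letters, with 9 GC boxes and a GC content of 79.3%, which is above that of 96.7% of the 35116 promoters in the table. TSC2 has 1 GC box and 73.0% GC, NTHL1 2 boxes and 73.3%, and TRAF7 1 box and 66.3%. Over all promoters of the same length, 45.0% hold at least 1 GC box, 26.7% hold at least 2, and the median GC content is 58.7%. All 4 windows are richer in CpG than the median promoter, which has 14, at 36 in TSC2, 42 in NTHL1, 44 in PKD1 and 38 in TRAF7. A match is a description of the letters and not a binding site.

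Library depth ran from 15.6 to 27.2 M (mega) tags, and the KO libraries were among the shallower ones. The stretch held 3 and 2 regions in the WT mock libraries and 2 and 5 in the WT PMA libraries. In KO cells it held 52 and 59 regions in mock and 72 and 73 after PMA. Both KO libraries of a treatment were thus more than 10 times above both WT libraries. The covered length was 1.64 and 1.48 kb in WT mock and 1.0 and 3.54 kb in WT PMA. It was 58.3 and 63.9 kb in KO mock and 158 and 148 kb in KO PMA, so γH2AX regions filled 52.7% and 49.2% of the stretch in the last group. The groups of the 2 genotypes did not overlap in either treatment.

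The excess in KO cells was far larger here than over the libraries as a whole. The mean covered length of KO over WT was 39.2-fold in mock and 67.4-fold after PMA, against 1.92-fold and 1.37-fold for all regions of a library. The value after PMA was 43.2-fold without WT PMA replicate 1 and 153-fold without WT PMA replicate 2. As a share of a library's covered length, the stretch made up 0.333% and 0.362% in KO mock, then 0.371% and 0.427% in KO PMA. In WT the shares were 0.0166% and 0.0175% in mock and 0.00318% and 0.0142% after PMA. In bins of 10 kb, both KO libraries exceeded both WT libraries in 25 of the 30 bins in mock, beside 19.4% of 38356 bins genome-wide, and in 29 of 30 after PMA, beside 27.2% genome-wide. The choice of the stretch rests on this contrast, so nothing is read from these counts. Among 9552 bins of 100 kb ranked by mean covered length from the top, the 3 bins of the stretch stood at 26, 245 and 34 in KO PMA and at 81, 110 and 44 in KO mock. In WT PMA the same bins stood at 5999, 6844 and 4793, and in WT mock at 2825, 3975 and 3075. In WT mock they held 0.67, 0.39 and 0.5 kb on average, above the 0.25 kb of the median bin. The input used for every library came from WT mock cells, so a copy number that differs in KO cells is not corrected for, and its part in the excess was not tested.

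**Figure D1:**
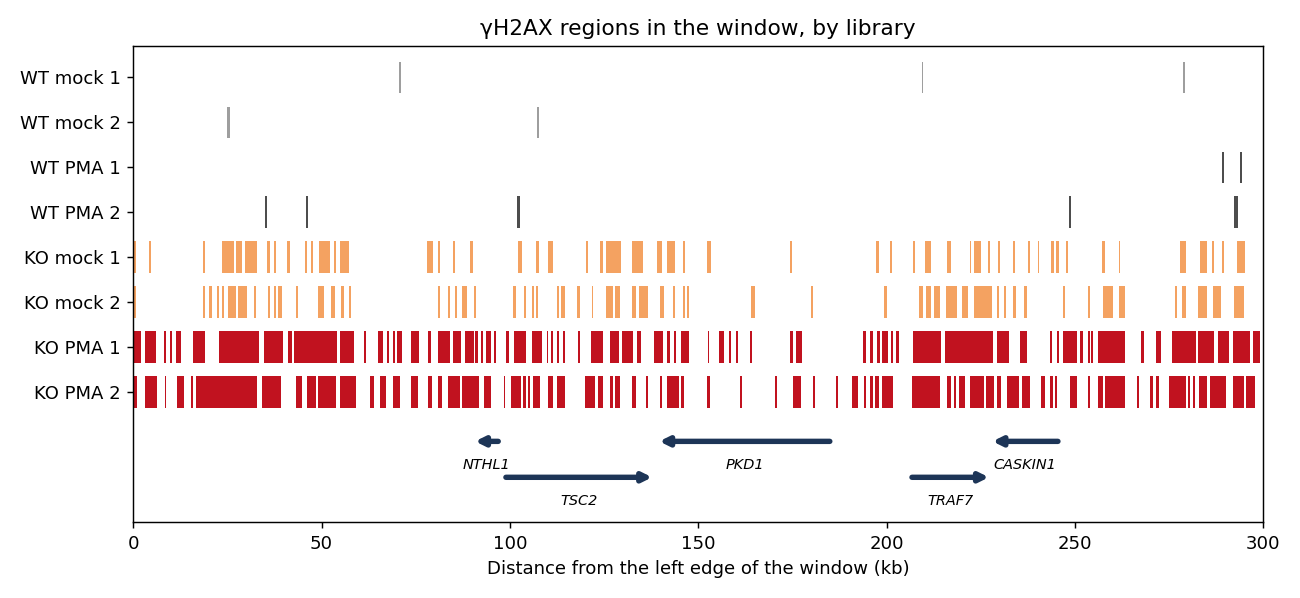
Each bar is 1 γH2AX region in the 300 kb window, placed by its distance in kb from the left edge of the window, with 1 row per library. Arrows give the 5 genes and their direction of transcription. The WT rows hold 2 to 5 short bars, while the KO PMA rows are filled over partly the same stretches in both libraries, with sparse cover over most of PKD1.

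The few WT regions were short and scattered. All 12 were between 500 and 923 bp long, with a fold over input (the authors' own value for each region) from 3.57 to 10.26, and none was shared between the 2 libraries of a group. Every one overlapped a region of at least 1 KO library, 5 of them overlapped regions of all 4, and the whole 7.65 kb that WT regions covered lay inside the 202 kb covered in any KO library. That KO total fills 67.4% of the stretch. Among the genes, only TSC2 and TRAF7 held WT regions. In TSC2, 1 region of WT mock replicate 2 (chr16:2107076-2107849, 5.57-fold over input) was met by regions of all 4 KO libraries, and 1 of WT PMA replicate 2 (chr16:2101957-2102793, 5.75-fold) by 3 of them. TRAF7 held a single WT region, in WT mock replicate 1 (chr16:2209284-2209784, 3.57-fold), met by 3 KO libraries.

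TRAF7 was the gene most fully covered in KO cells. Its 22.3 kb held 6.30 and 13.2 kb of regions in KO mock and 20.025 and 16.1 kb in KO PMA, while WT mock replicate 1 held 0.5 kb and the other 3 WT libraries 0. Both KO PMA libraries lay above both KO mock libraries, although the mock pair differed by more than the PMA pair. Here and for the genes below, how common such an order is over all genes was not counted. The covered share was 43.6% ± 21.7 in KO mock and 80.8% ± 12.5 in KO PMA (mean ± SD, n = 2 each), a ratio of 1.86 between group means. In KO PMA replicate 1 the cover was almost continuous, at 89.7% of the gene, and in replicate 2 it was 72.0%. A region of 7413 bp (chr16:2207024-2214437, 3.46-fold) in replicate 1 had a counterpart of 7314 bp (chr16:2206812-2214126, 3.26-fold) in replicate 2, whose ends differed by 212 and 311 bp. Replicate 1 also held a region of 12699 bp (chr16:2215518-2228217, 3.47-fold) that ran to the 3′ end of the gene and into its overlap with CASKIN1. In replicate 2 the same part was covered in shorter pieces, and the middle one of 5 equal parts of the gene was covered to 38.8%, below the 65.2% of KO mock replicate 2. With equal numbers of regions per library, TRAF7 held 3.45 and 13.2 kb in KO mock and 7.41 and 12.5 kb in KO PMA, and the groups overlapped.

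Regions were spread along TSC2, with every one of 5 equal parts of the gene covered to at least 6.14% in each KO library. It held 11.1 and 12.0 kb of its 40.7 kb in KO mock and 19.2 and 17.7 kb in KO PMA. In WT it held 0 and 0.773 kb in mock and 0 and 0.836 kb after PMA. The 4 KO values fall into 2 tight pairs that do not overlap each other or the WT values. Its covered share was 28.3% ± 1.68 in KO mock and 45.2% ± 2.56 in KO PMA (SD, n = 2), which at 1.60 gave the smallest ratio of the 5 genes. No region in TSC2 reached 5 kb in any library. The longest was one of 3836 bp in KO mock replicate 1 (chr16:2125650-2129486, 3.43-fold), and the highest fold was 8.72, in KO PMA replicate 2 (chr16:2132404-2133594). The gene held 4 stretches called in all 4 KO libraries, the longest of 918 bp (chr16:2127967-2128885). The order of the KO groups depended on how many regions were kept: with an equal number of regions per library, the strongest by score, TSC2 had 9.59 and 6.76 kb in KO mock and 5.07 and 4.46 kb in KO PMA, the reverse order.

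PKD1, the longest gene of the 5, was the least covered in KO PMA and had no region in any WT library. Its 47.2 kb held 5.65 and 4.18 kb in KO mock and 11.2 and 8.82 kb in KO PMA. The KO PMA pair lay above the KO mock pair, and the covered share was 10.4% ± 2.20 in mock and 21.2% ± 3.55 after PMA (SD, n = 2), a ratio of 2.03. This cover sat mostly at the 3′ end. In the last of 5 equal parts of the gene, 44.0% and 27.1% of the bases were covered in KO mock, then 57.9% and 47.2% in KO PMA. In the other 4 parts no KO library passed 20.3%. The upstream part of PKD1 is duplicated in several pseudogenes elsewhere on the chromosome, where reads are hard to place, and the part of this in the sparse cover was not tested. When regions under 6-fold were dropped, PKD1 held 0.5 and 2.63 kb in KO mock and 2.56 and 0 kb in KO PMA, so the order of the means was reversed.

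NTHL1 had the largest ratio between KO PMA and KO mock, from a very low start. Its 8.05 kb held 0.294 and 0.5 kb in KO mock, 1 region in each library at the 3′ end of the gene. After PMA it held 3.90 and 3.63 kb, and in WT it held none. The 2 KO groups did not overlap, and the covered share went from 4.93% ± 1.81 to 46.7% ± 2.36 (SD, n = 2), a ratio of 9.48. No stretch of NTHL1 was called in all 4 KO libraries, since the 2 KO mock regions did not overlap each other. CASKIN1 had no WT region either, and of its 19.3 kb 3.91 and 3.30 kb were covered in KO mock and 6.90 and 10.3 kb in KO PMA. Its share was 18.7% ± 2.27 in KO mock and 44.5% ± 12.3 in KO PMA (SD, n = 2), a ratio of 2.38.

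**Figure D2:**
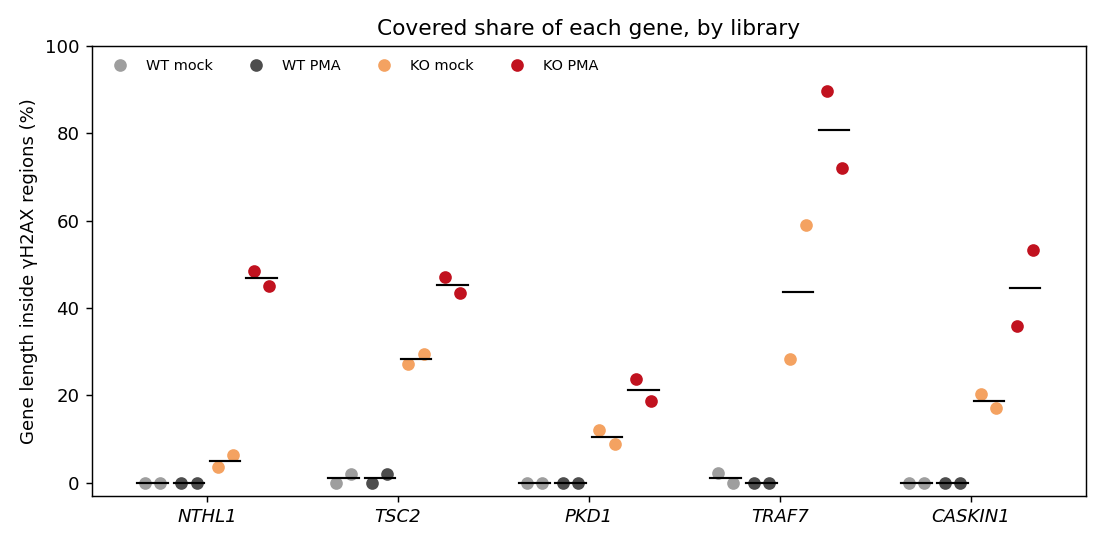
Points give the share of each gene's length inside γH2AX regions, in percent, for each of the 8 libraries, and lines give the means of the 2 libraries of a group. WT points sit at or near 0 for every gene, KO PMA points lie above KO mock points in all 5 genes, and TRAF7 reaches the highest share at 80.8% on average. How common that order is among other genes was not counted.

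The order of the genes by covered share in KO PMA was thus TRAF7, NTHL1, TSC2, CASKIN1 and PKD1. NTHL1, TSC2 and CASKIN1 did not differ beyond their spread, while TRAF7 lay above them and PKD1 below them in both libraries. In KO mock the order was TRAF7, TSC2, CASKIN1, PKD1 and NTHL1, with the lower TRAF7 library level with the TSC2 libraries. Stretches next to the genes were covered as well. The 89.8 kb before NTHL1 held 21.5 and 17.1 kb in KO mock and 57.2 and 56.3 kb in KO PMA. The 53.5 kb after CASKIN1 held 8.64 and 13.7 kb in KO mock and 35.0 and 28.1 kb in KO PMA. The 19.9 kb between PKD1 and TRAF7 held 1.18 and 0.650 kb in KO mock and 5.62 and 7.64 kb in KO PMA. Cover was thus not limited to the bodies of the genes named here. Whether it lay outside all gene bodies was not tested, since no annotation of other genes was at hand.

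The gene starts stood apart within this cover in KO PMA, and less clearly in KO mock. Within 500 bp of the nearest of the 5 starts, the covered share was 0 and 3.84% in the KO PMA libraries and 0 and 3.03% in the KO mock libraries. Between 5 and 10 kb from the starts it was 48.8% and 52.9% in KO PMA and 10.7% and 19.7% in KO mock. Over the whole stretch the KO PMA libraries had 52.7% and 49.2% and the KO mock libraries 19.4% and 21.3%, so KO mock replicate 1 was below its overall share at that distance too. The nearest KO region to the TRAF7 start lay at 1013 bp, to the PKD1 start at 569 bp, to the NTHL1 start at 465 bp, to the CASKIN1 start at 375 bp and to the TSC2 start at 342 bp. The low cover was shared by all 4 KO libraries, but it rests on 5 starts, of which those of NTHL1 and TSC2 lie side by side, and no other genes were used for comparison.

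**Figure D3:**
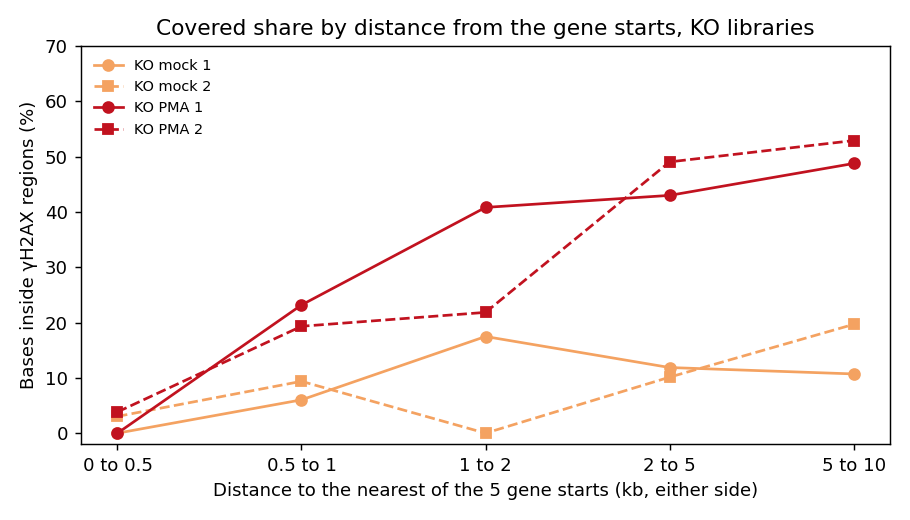
Lines give the percent of bases inside γH2AX regions, by distance in kb to the nearest of the 5 gene starts on either side, for the 4 KO libraries. All 4 lie at or below 3.84% within 0.5 kb, and the KO PMA lines climb to 48.8% and 52.9% at 5 to 10 kb.

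Region length set the KO PMA libraries apart. The median region in the stretch was 680 and 786 bp long in KO mock and 1275 and 1381 bp in KO PMA, while the median over the rest of each library was 500 bp, or 626 bp in KO PMA replicate 1. Windows that stood alone at 500 bp were 34.6% and 39.0% of the regions here in KO mock, then 23.6% and 19.2% in KO PMA, against 49.6% to 61.9% in the rest of the KO libraries. Regions of at least 5 kb occurred only in KO PMA, with 7 in replicate 1 and 4 in replicate 2. None of them touched NTHL1, TSC2 or PKD1. The longest in the stretch, 15978 bp in KO PMA replicate 2 (chr16:2016756-2032734, 3.66-fold), lay before NTHL1. It shared 10035 bp with a region of 10692 bp in replicate 1 (chr16:2022699-2033391, 3.95-fold). Of the 11 long regions, 4 in each library formed such pairs between replicates.

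The regions were long for these libraries but not high in fold over input. Their median fold over input was 3.97 and 3.87 in KO mock, then 3.83 and 3.78 in KO PMA, below the medians of 4.17, 4.37, 4.07 and 4.26 in the rest of the same libraries. Regions of at least 6-fold made up 13.5% and 15.3% here in KO mock, then 6.94% and 11.0% in KO PMA, against 18.8% to 21.2% elsewhere in these libraries. Such regions covered only 3.71 and 6.25 kb of the stretch in KO mock and 3.73 and 7.92 kb in KO PMA, still above WT at 0.5 and 0 kb in mock and 0.5 and 0 kb after PMA. The highest fold, 14.61, belonged to a region of 500 bp after CASKIN1 in KO mock replicate 1 (chr16:2289069-2289569). The highest in the other KO libraries was 11.91 in KO mock replicate 2 (chr16:2080885-2081539), 8.15 in KO PMA replicate 1 (chr16:2251421-2252093) and 8.72 in KO PMA replicate 2, the TSC2 region given above. The input tags in the regions, per kb and per 10 M tags, were 5.01 and 5.34 in KO mock, then 5.94 and 5.79 in KO PMA. In the rest of these libraries they were 5.42, 5.64, 5.11 and 5.07. The γH2AX tags on the same scale were 18.0 and 19.4 here in KO mock, below 19.5 and 20.8 in the rest. In KO PMA they were 21.1 and 20.6 here, above 18.6 and 19.3 in the rest.

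**Figure D4:**
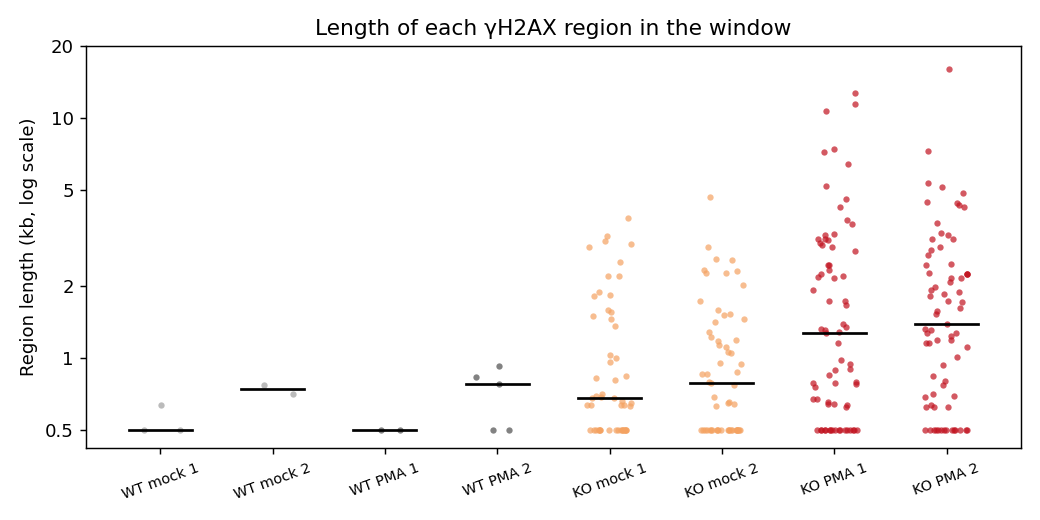
Each point is the length in kb, on a log axis, of 1 γH2AX region in the window, and lines give the median of a library. Points above 5 kb appear only in the KO PMA libraries, up to 15978 bp in replicate 2, and many regions of every KO library sit at the 500 bp minimum.

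The KO replicates shared part of their covered length. Of the base pairs covered in either KO PMA library, a fraction of 0.566 was covered in both, and in KO mock the fraction was 0.293, against 0.265 and 0.144 over the whole genome. Such a fraction rises with the share of a stretch that is covered, 52.7% and 49.2% here in KO PMA. The values here and genome-wide are therefore not on a like footing, and placement at random was not tested. In KO PMA the fraction was 0.784 in TRAF7, 0.473 in NTHL1, 0.399 in TSC2, 0.333 in CASKIN1 and 0.302 in PKD1. In both WT groups the fraction in this stretch was 0. A total of 22.6 kb was covered in all 4 KO libraries, in 32 stretches, of which 4 lay in TSC2, 3 in PKD1, 4 in TRAF7 and 2 in CASKIN1. The longest in a named gene was 1783 bp in TRAF7 (chr16:2223243-2225026). Of the 110 kb covered in both KO PMA libraries, 42.1% lay outside the regions of either KO mock library. Of the base pairs covered in both KO mock libraries, 81.8% were also covered in both KO PMA libraries. By gene, this share of the base pairs covered in both KO mock libraries was 100% of 4.85 kb in TRAF7 and 59.6% of 1.59 kb in PKD1. It was 45.8% of 5.58 kb in TSC2 and 43.8% of 1.13 kb in CASKIN1. A base missed in 1 KO PMA library counts as not shared, so these values do not measure a loss with PMA. Of the base pairs covered in both KO PMA libraries, the share outside the regions of either KO mock library was 24.6% in TRAF7 and 48.4% in PKD1. It was 26.6% in TSC2 and 41.5% in CASKIN1.

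The effect of PMA was tested within each genotype across the genome, with limma on log2(covered bp + 1000). A difference on this scale understates the change of little-covered bins. The choice of the stretch also used the KO PMA libraries, which favours high values in them. In KO cells, the bin from 2000001 to 2100000 held 21.8 and 17.6 kb in mock and 62.0 and 60.5 kb after PMA. It rose by 1.59 (SE 0.40, limma adjusted p = 0.0483). The bin from 2100001 to 2200000, with most of TSC2 and PKD1, held 17.4 and 16.8 kb in mock and 33.2 and 32.0 kb after PMA, a difference of 0.89 (SE 0.39) that did not pass the test (limma adjusted p = 0.196). The bin from 2200001 to 2300000, with TRAF7 and CASKIN1, held 19.1 and 29.5 kb in mock and 62.9 and 55.1 kb after PMA, a difference of 1.28 (SE 0.39) that did not pass either (limma adjusted p = 0.0842). The PMA libraries lay above the mock libraries in all 3 bins, but how many bins genome-wide show the same order was not counted. The call, 1 of 3 bins, stands beside 13.1% of 9552 bins called higher genome-wide. With the 4 KO libraries alone, 2 of the 3 bins were called higher, beside 1268 of 6893 genome-wide. Only these 6893 bins had regions in at least 2 KO libraries, as had all 3 here, so 13.1% is not a like share. The call of the first bin was lost when any 1 of the 4 KO libraries was left out, and with regions of at least 6-fold, where its difference turned to −0.59. It was also lost with a pseudocount of 500 bp (limma adjusted p = 0.132), with bins covered in any library (0.0603) and without WT mock replicate 1 (0.0845) or 2 (0.0850). Without either WT mock library the third bin passed in its place (limma adjusted p = 0.0472 and 0.0470). All regions together grew 2.20-fold with PMA in KO cells and those of this stretch 2.50-fold.

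At 10 kb, 13 of the 30 bins rose with PMA in KO cells and none fell, beside 12.4% of 38356 bins called higher genome-wide (limma, adjusted p under 0.05). The bin with the NTHL1 and TSC2 starts, 2090001 to 2100000, went from 0.110 and 0.5 kb to 4.603 and 3.95 kb, a rise of 2.03 (SE 0.17, limma adjusted p = 0.00218). Of the 4 bins centred in TSC2 none was called, of the 5 in PKD1 1, of the 2 in TRAF7 none and of the 2 in CASKIN1 1. Both bins between PKD1 and TRAF7 were called, as were 5 of the 9 before NTHL1 and 3 of the 5 after CASKIN1. The bins with the most cover in KO mock, such as 2020001 to 2030000 with 4.99 and 5.89 kb, were not among those called. A bin cannot hold more than 10 kb, which KO PMA replicate 2 reached in this one, so well-covered bins had little room to rise. This also holds for the 2 bins in TRAF7, at 4.34 and 4.98 kb on average in KO mock. In most of the 30 bins the 4 WT libraries were all at 0, which lowers the spread that the fit shares between groups. With the 4 KO libraries alone 9 of the 30 bins were called higher, beside 4247 of 22326 genome-wide. Only these 22326 of the 38356 bins had regions in at least 2 KO libraries, as had all 30 here. The 12.4% is therefore not a like share for these 30 bins. Without KO PMA replicate 1 or 2 the count was 5 each time, with 1 bin over the end of TSC2 (2130001 to 2140000) called lower without replicate 1 (−0.71, limma adjusted p = 0.0426), and without WT mock replicate 1 or 2 it was 8 each time. Genome-wide 4757 bins were called higher and 1001 lower, and with each library centred on its median bin 1661 and 5169, where the median difference over all bins moved from 0.29 to −0.29. In the stretch 6 bins were then called higher and none lower in KO cells. With equal numbers of regions per library the count was 7, and with regions of at least 6-fold 1 bin was called higher and 1 lower, of 9 that could be tested.

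**Figure D5:**
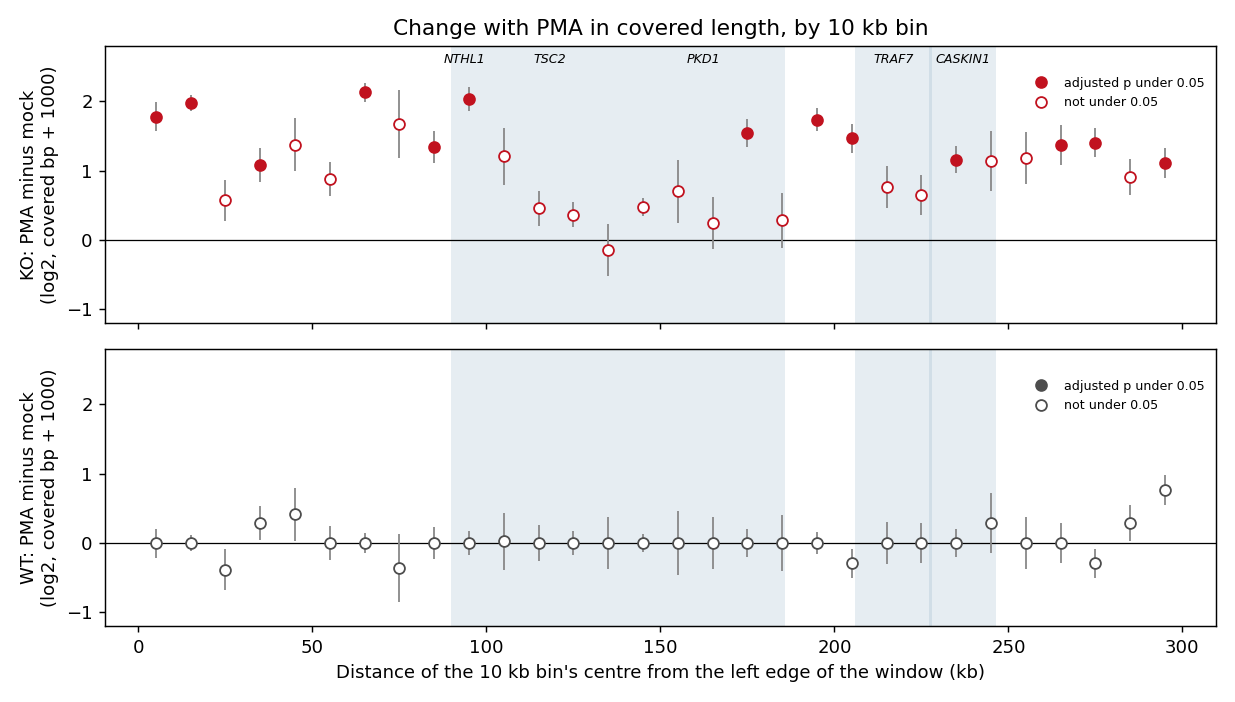
Points give the PMA minus mock difference in log2(covered bp + 1000) for each 10 kb bin, by distance in kb from the left edge of the window, in KO cells above and WT cells below, with bars of 1 SE and genes shaded. Filled points passed limma's adjusted p of 0.05: 13 of 30 in KO and 0 of 30 in WT. Most WT points lie at 0 because no WT library had a region in those bins.

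In WT cells no bin of the stretch passed the test. The 3 bins of 100 kb had PMA minus mock differences of −0.15 (SE 0.40), 0.03 (SE 0.39) and 0.64 (SE 0.39; limma adjusted p of at least 0.285 in each), beside 34.4% of bins called in either direction genome-wide. At 10 kb none of the 30 bins was called by limma, and 1 had an unadjusted p under 0.05. Genome-wide 16.5% were called in either direction. In most of the 30 bins no WT library had a region, so their difference was 0 and this fit could not call them. They were tested only because KO libraries covered them, so the count cannot be weighed against the genome-wide share. With the WT libraries alone, 2 of the 30 bins could be tested, and none was called. With centring 1 of the 30 was called lower, a bin without any WT region. The WT split genome-wide went from 5600 higher and 711 lower bins of 10 kb to 1077 and 3031, and from 3062 and 221 bins of 100 kb to 1247 and 941. In WT, the libraries as a whole grew 3.08-fold with PMA and the regions of this stretch 1.46-fold, from a base of only 2 to 3 regions per library. The latter value was 2.27 without WT PMA replicate 1 and 0.642, a lower level than in mock, without WT PMA replicate 2. Whether the PMA effect differs between the genotypes was not tested, since the genotype contrast chose the stretch.

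Other bins were ranked by how alike their profile over the libraries was. The likeness was Pearson's r over the 8 libraries between the mean log2(covered bp + 1000) of the 3 bins here and that of other 100 kb bins with at least 10 kb covered in KO PMA, and it serves as a description only. The points share depth and the efficiency of each immunoprecipitation. Of 1033 such bins, 242 had an r over 0.95. By the rule of at most 1 bin per 10 Mb, the 5 most alike were chr14:105200001-105300000 (r = 0.999), chr8:144600001-144700000 (r = 0.997), chr19:2200001-2300000 (r = 0.995), chr19:50300001-50400000 (r = 0.995) and chr9:140000001-140100000 (r = 0.991). The closest, on chromosome 14, held 6.87 and 7.54 kb in KO mock, then 13.5 kb in each KO PMA library, with 0.5 kb in WT PMA replicate 2 and 0 in the rest of WT. Since only bins with at least 10 kb in KO PMA entered, the high KO PMA end of this profile is set by the filter.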

How the data were processed

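γH2AX ChIP-seq of 8 libraries was compared over 300 kb of chromosome 16. The submitters' processing notes name CASAVA 1.4, BWA, HOMER and the build hg19. Each library was compared by the authors with the WT mock input, per the file headers, joining windows of 500 bp at least 2-fold over input (caller probability 0.0001) and above the library's tag threshold (5.89 to 7.69 tags per 10 M). The deposited signal is tags per 10 M, and 5 deposited lists also give the tag count of a region. Fold (a ratio to scaled input tags), score and p-value of each region were deposited by the authors and taken as they stand. The score served only to rank regions.

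Regions were merged and covered length counted per library, gene and bin with Python 3.11.15, numpy 2.4.6 and pandas 2.3.3. Bins covered in at least 2 libraries were fitted with limma 3.58.1 (R 4.3.3, trend, 4 groups, all 8 libraries, two-sided, Benjamini-Hochberg adjusted p under 0.05 over all bins) and tested on simulated data. With no hg19 annotation or genome at hand, all-gene tests and pathway lists were not run. Gene bounds are those of the rule that defines the window. The text names the 5 genes, the longest and highest-fold regions of the KO libraries, and the 5 bins of most alike profile. Regions in pairs, bins and WT regions beyond that were chosen after their values were seen. The members, lists and tests were chosen with earlier results of these data known. Depth limits weak windows, since each library had its own threshold.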

Additional observations from a re-analysis of the deposited data

How the results depend on the processing

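Covered length in KO over WT kept its direction under every alternative that gave a value. On the log2 scale it was 5.29 in mock and 6.07 after PMA. It moved by more than the replicate spread with regions of at least 6-fold (4.32 in mock, 4.54 after PMA) and, in mock, with 1 tag threshold for all libraries (6.47), the same number of regions from each (5.05) and the share of each library's covered length (4.35). Leaving out 1 library gave 5.22 to 5.37 in mock and 5.43 to 7.26 after PMA. Regions of at least 1000 bp left none in WT, so no ratio could be had. The number of 100 kb bins called higher with PMA in KO cells, 1 of 3, was 0 with regions of at least 6-fold, a pseudocount of 500 bp, bins covered in any library or a replicate block. It was 2 with a pseudocount of 2000 bp, centring, bins covered in at least 4 libraries or the 4 KO libraries alone, 3 with regions of at least 1000 bp, and 0 to 1 without 1 library. At 10 kb, 13 of 30 became 1 with regions of at least 6-fold, 7 with equal numbers of regions, 6 with centring, 10 with the replicate block and 5 to 12 without 1 library. The WT count at 10 kb, 0, became 1 with a pseudocount of 500 bp and 1 with centring. The first 100 kb bin reversed in KO with regions of at least 6-fold (−0.59). In WT the first bin reversed with 1 tag threshold (0.29) and ran from −0.74 to 0.45 without 1 library, the second with 1 tag threshold (−0.41), centring (−0.76) and without 1 library (−0.41 to 0.46), and the third with centring (−0.14). KO PMA over KO mock reversed in TSC2 with equal numbers of regions (−0.78) and in PKD1 with regions of at least 6-fold (−0.29). The cause was not tested. Differences between replicates correlated weakly across groups (from −0.0585 to 0.164 over 100 kb bins, highest between WT mock and WT PMA). Such values cannot show whether same-numbered libraries shared a culture or batch. The main fits used no pairing. The fits with the 4 libraries of a genotype, and those leaving out a library of the other genotype, were added after seeing the data.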
